A study of Mus musculus with 4 samples.

Results

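Gbp2 and Gbp3 encode guanylate-binding proteins, large GTPases whose transcription is induced by interferon. They were chosen by name: in the authors' deposited comparison table, every probe set was taken whose gene name contains interferon or guanylate binding in its various spellings, or which stands for Gbp2 or Gbp3. The rule found 2 of the 374 probe sets listed there, 1 for each gene, among 45037 non-control probe sets on the arrays. No entry of the table was named by the word interferon. The authors had already filtered that table on these very arrays: in their values each entry is at least 2-fold apart, and none has an adjusted p-value above 0.05. Membership therefore already rests on the comparison between the populations, so the differences of Gbp2 and Gbp3 between them are a description, and no test is read from them.

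RNA came from testes of Sox2GFP mice aged 2 weeks on a mixed 129SvJae/BL6 strain background. Cells positive for the Sox2GFP reporter, a green fluorescent protein that reports Sox2, were sorted by surface ckit, the stem cell factor receptor, into Sox2GFP+ckit+ and Sox2GFP+ckit- cells (ckit+ and ckit- cells below), with 2 arrays each. The labels describe the ckit+ cells as unable and the ckit- cells as able to regenerate damaged tubules. All groups carried the reporter, each sample pooled 20 testes, and 5 ng of RNA from between 20000 and 90000 cells was amplified. The labels call the arrays of a population biological replicates.

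Guanylate-binding proteins belong to the dynamin superfamily and are best known from macrophages and other cells that meet interferon-gamma, where they assemble on the membranes around intracellular bacteria and parasites. Interferons bind surface receptors that signal through JAK kinases to transcription factors. Promoters of interferon-induced genes are known to carry the gamma-activated sequence (GAS) or the interferon-stimulated response element (ISRE). In the testis, interferon responses have been described chiefly for somatic cells and resident macrophages.

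The promoters are shown because both genes had higher values in the same population and belong to 1 family on chromosome 3. In the RefSeq annotation of GRCm38.p6, the protein-coding genes from Gbp5 through Gbp7, Gbp3 and Gbp2b to Gbp2 follow each other with no other protein-coding gene between them. The 250 bases before the annotated start were read from RefSeq (GRCm38.p6, plus strand), at chr3:142620413-142620662 for Gbp2 and at chr3:142559794-142560043 for the upstream one of the 2 annotated starts of Gbp3. Capitals mark matches to the core of the ISRE, read as TTTC, any 2 bases and TTTC again (GAAA, any 2 bases and GAAA on the other strand).
Gbp2: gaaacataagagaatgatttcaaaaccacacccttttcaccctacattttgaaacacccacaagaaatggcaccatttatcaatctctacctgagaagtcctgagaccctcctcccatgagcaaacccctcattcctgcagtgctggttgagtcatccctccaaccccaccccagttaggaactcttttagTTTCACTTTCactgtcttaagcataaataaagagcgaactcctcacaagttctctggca
Gbp3: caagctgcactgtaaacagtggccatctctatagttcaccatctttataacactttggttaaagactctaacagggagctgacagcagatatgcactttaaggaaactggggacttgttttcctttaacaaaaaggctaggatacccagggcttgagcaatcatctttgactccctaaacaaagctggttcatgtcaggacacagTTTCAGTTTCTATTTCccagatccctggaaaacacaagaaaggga
Gbp2 had 1 match, 59 to 50 bases before its start. Gbp3 had 2 overlapping matches, 45 to 36 and 39 to 30 bases before the start, so their capitals run together. The second annotated start of Gbp3 had 0 matches. Searched on both strands, the ISRE core stood in 2.97% of 32817 annotated mouse promoters of the same 250 bases. The GAS core, TTCNNNGAA, stood in 7.01% of them and had 0 matches in the Gbp2 and Gbp3 windows. A match is only a run of letters, and no binding was measured here.

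The other chromosome 3 genes of the family were not named in the deposited table, so their expression was not analysed here, but their promoter windows could be searched. Gbp2b, Gbp5 and Gbp7 each had 1 ISRE core match. Gbp5 and Gbp7 also had 2 GAS core matches each, and Gbp2b had 0. The 30 bases around the most upstream ISRE core match of each gene show which spacer letters stand between the TTTC repeats, which the search fixed.
Gbp2: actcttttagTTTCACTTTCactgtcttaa
Gbp3: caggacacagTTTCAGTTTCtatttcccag
Gbp2b: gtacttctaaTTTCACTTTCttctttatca
Gbp5: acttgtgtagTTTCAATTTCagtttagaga
Gbp7: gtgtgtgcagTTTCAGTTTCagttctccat
These windows lie at chr3:142620594-142620623 for Gbp2, chr3:142559989-142560018 for Gbp3, chr3:142594700-142594729 for Gbp2b, chr3:142496759-142496788 for Gbp5 and chr3:142530273-142530302 for Gbp7, all on the plus strand of GRCm38.p6. Gbp2 and Gbp2b share the same 10 matched bases, as do Gbp3 and Gbp7.

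**Figure D1:**
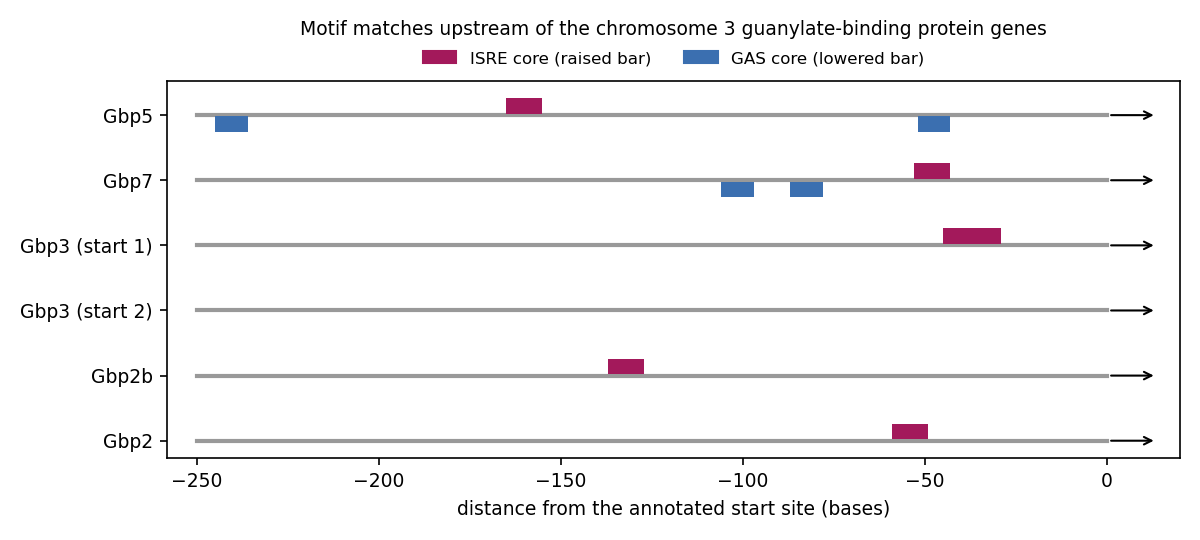
Map of the 250 bases upstream of each annotated start of the chromosome 3 guanylate-binding protein genes, with distance from the start in bases on the x axis and 1 line per start in genome order. Raised bars are ISRE core matches and lowered bars GAS core matches. The matches of Gbp2 and of the upstream start of Gbp3 lie within 59 bases of the start, and the second Gbp3 start has none.

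As a check of the labels, the brighter probe set of Kit, the gene of the sorted receptor, had log2 values of 9.68 and 9.62 in ckit+ cells and 6.87 and 6.78 in ckit- cells. Medians of the 4 arrays ranged over 6.39 to 6.42 and their lower quartiles over 4.93 to 5.04. No detection calls were used here, so a value near the lower quartile cannot be told from background. In pooled RNA, fewer cells of a type and less RNA per cell cannot be told apart. Limma, run across all non-control probe sets, called 139 of 45037 (0.309%) at an adjusted p under 0.05, 87 of them higher in ckit- cells (0.193%).

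Both guanylate-binding protein genes had higher values in ckit- than in ckit+ cells. Gbp3 (probe set 1418392_a_at, named through NM_018734) had log2 expression values of 5.80 and 6.31 in ckit+ cells and 7.68 and 7.95 in ckit- cells. The groups did not overlap, the closest arrays being 1.37 apart, while arrays of 1 population differed by 0.52 in ckit+ and 0.26 in ckit- cells. The means were 6.05 ± 0.36 in ckit+ and 7.82 ± 0.19 in ckit- cells (SD, n = 2 each), a log2 difference of -1.76 ± 0.22 (ckit+ minus ckit-, limma's SE), 3.39-fold higher in ckit- cells. Its level lay at the 39.3 and 48.5 percentile of the ckit+ arrays and at the 70.4 and 74.4 percentile of the ckit- arrays. It was thus below the middle of both ckit+ arrays and above the middle of both ckit- arrays. Without detection calls, whether its ckit+ level exceeds background is not known, and its fold has that limit.

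Gbp2 (1418240_at, NM_010260) was dim in both populations. Its log2 values were 4.86 and 5.31 in ckit+ cells and 6.30 and 6.10 in ckit- cells. Again no ckit+ array reached a ckit- array, with 0.79 between the closest, and the ckit+ arrays differed from each other by 0.45 and the ckit- arrays by 0.20. Averages of 5.09 ± 0.32 for ckit+ and 6.20 ± 0.14 for ckit- cells (SD, n = 2 each) gave a log2 difference of -1.11 ± 0.21 (limma's SE). The ckit+ arrays placed it at the 23.6 and 31.0 percentile, so that array 1 was below its lower quartile of 4.95, and the ckit- arrays at the 48.0 and 43.7 percentile. Since the ckit+ level may be background, no fold is given for Gbp2.

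For both genes the within-population gap was wider in ckit+ cells, where replicate 2 was the higher array. Over all probe sets, the median gap between arrays of 1 population was 0.19 in ckit+ and 0.21 in ckit- cells. In ckit- cells replicate 2 was the higher array for Gbp3 and the lower one for Gbp2.

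Across the arrays, 62 probe sets (0.138%) had a difference as low as that of Gbp3 or lower, and 266 (0.591%) as low as that of Gbp2. Both members were at least 2-fold higher in ckit- cells, as were 0.815% of all probe sets, though the ckit+ level of Gbp2 may be background. Both had ckit- arrays above their ckit+ arrays without overlap, as had 24.2% of all probe sets. By limma 0 of the 2 passed an adjusted p under 0.05 over all probe sets (0.309% did), 2 had an unadjusted p under 0.05 (15.7% of all did), and the equal-variance test that the authors' table header names also called 0 when adjusted over all probe sets (0.00222% were called). Limma called 1 of the 2, Gbp3, when the spread was allowed to follow intensity (0.930% of all probe sets were called) and when replicate numbers entered as a block (1.23%). Nothing is read from these counts, since the table was selected on the same contrast.

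For Gbp3, mean log2 values in the authors' deposited table were 5.50 for ckit+ and 7.38 for ckit- cells, with standard errors of 0.203 and 0.144, and a ratio of 3.68 (ckit- over ckit+, adjusted p = 0.039). For Gbp2 the authors' deposited table gave 4.76 in ckit+ and 6.04 in ckit- cells, with standard errors of 0.226 and 0.010, and a ratio of 2.43 (ckit- over ckit+, adjusted p = 0.049). These means lie below those of the value table in both populations for both genes, and how the values behind them were normalized is not given in the sources used here. With 0.049 against the table's largest adjusted p of 0.050, Gbp2 was a member close to the authors' limit.

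**Figure D2:**
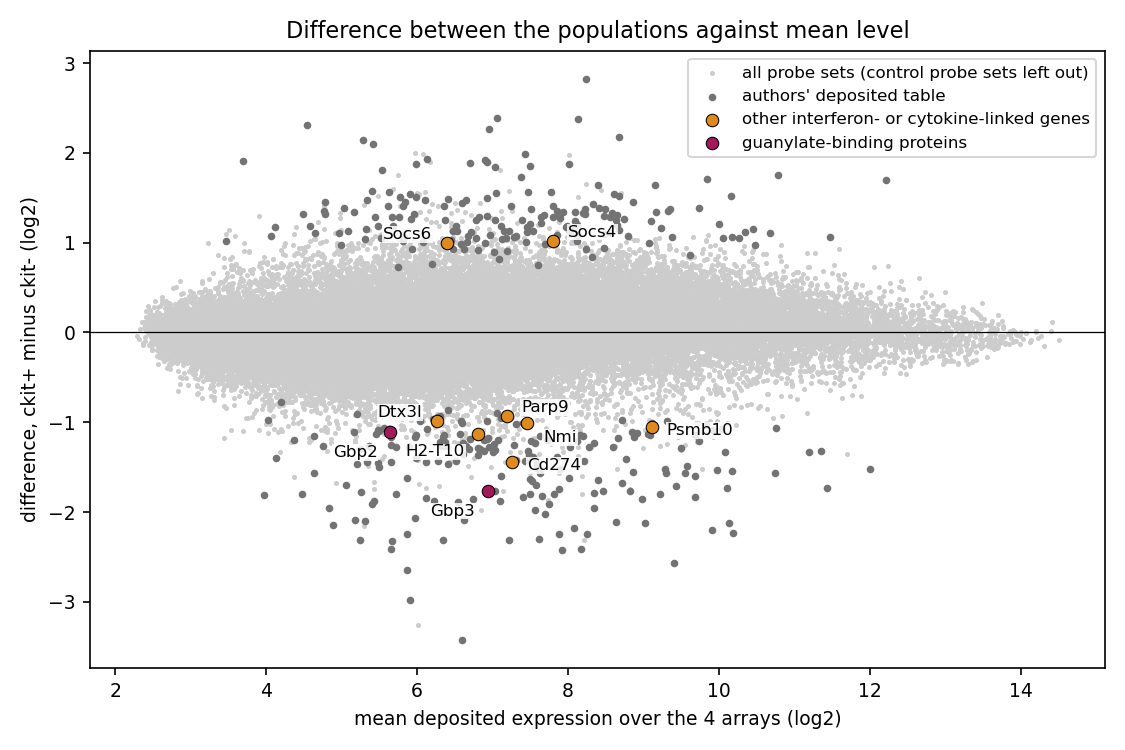
Each point is a probe set, with its mean log2 level over the 4 arrays on the x axis and the log2 difference, ckit+ minus ckit-, on the y axis. Light grey points are all non-control probe sets, dark grey points those of the authors' deposited table, and the guanylate-binding proteins and other interferon- or cytokine-linked genes are named. Gbp3 (-1.76) and Gbp2 (-1.11) lie below 0 and Socs4 (1.02) and Socs6 (0.99) above it, among the dark grey points of the authors' selection.

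Further genes of the interferon pathway could be followed only where the deposited table named them. Of 89 genes listed for the pathway, 5 were named: Gbp2, Gbp3, Cd274, Psmb10 and Parp9. Higher values in ckit- cells were found for 5 of the 5, the median of their log2 differences being -1.11, against -0.97 over the deposited table from which they came and -0.005 over all probe sets. Among all entries of the deposited table, 196 pointed towards ckit- cells and 178 towards ckit+ cells, so a direction towards ckit- cells was common among selected probe sets. Each entry was at least 2-fold apart in the authors' values, so the table's median falls on the larger side and describes no shared shift. Limma called 0 of the 5 (0.309% of all probe sets), 5 had an unadjusted p under 0.05 (15.7% of all), and the equal-variance test also called 0 (0.00222% of all). Limma called 3 (Gbp3, Cd274 and Psmb10) with an intensity trend (0.930% of all) and with the block (1.23% of all). The authors had selected these genes too, so the counts support nothing. By role, the named genes were 2 of 11 guanylate-binding proteins, 0 of 9 immunity-related GTPases and Mx proteins, 0 of 21 ligands, receptors and signalling genes, 1 of 35 sensors and antiviral effectors and 2 of 13 genes of antigen presentation. The unnamed ones were not analysed here.

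Cd274 encodes PD-L1, the ligand of the T cell inhibitory receptor PD-1, and is induced by interferon-gamma. Its log2 values were 6.63 and 6.45 in ckit+ cells and 8.21 and 7.76 in ckit- cells, a difference of -1.44 ± 0.21 (limma's SE), 2.71-fold higher in ckit- cells. The ckit- arrays were 0.45 apart and both stood above both ckit+ arrays. Psmb10, a catalytic subunit of the immunoproteasome, which cuts proteins into peptides for presentation on MHC class I, had 8.60 and 8.57 in ckit+ cells and 9.77 and 9.50 in ckit- cells. It differed by -1.05 ± 0.17 (limma's SE), 2.07-fold higher in ckit- cells, and stood at the 80.0 and 79.6 percentile of the ckit+ and the 90.0 and 88.7 percentile of the ckit- arrays. Parp9, an ADP-ribosyltransferase family member that acts in the interferon response, had 6.66 and 6.78 in ckit+ cells and 7.67 and 7.64 in ckit- cells, a difference of -0.93 ± 0.16 (limma's SE). The arrays of each population lay close together for Parp9, 0.12 apart in ckit+ and 0.02 apart in ckit- cells.

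Another 5 genes with a link to cytokine signalling were picked from the table after their values had been seen, 3 higher in ckit- and 2 in ckit+ cells. Dtx3l is the ubiquitin ligase partner of Parp9, and the genes are neighbours on chromosome 16 in the GRCm38.p6 annotation. Dtx3l had 5.82 and 5.71 in ckit+ cells and 6.78 and 6.73 in ckit- cells, a difference of -0.99 ± 0.16 (limma's SE), close to the -0.93 of Parp9. Dtx3l stood at the 39.8 and 37.8 percentile of the ckit+ arrays, and whether that level exceeds background is not known. Nmi, an interferon-induced protein that binds N-myc, had 6.80 and 7.10 in ckit+ cells and 8.06 and 7.86 in ckit- cells, a difference of -1.01 ± 0.19 (limma's SE). H2-T10, a non-classical MHC class I gene, had 6.25 and 6.23 in ckit+ cells and 7.56 and 7.16 in ckit- cells, a difference of -1.13 ± 0.19 (limma's SE). Its probe set carries the manufacturer's suffix for probes shared by similar transcripts, so it may also read related MHC genes.

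The other two ran the opposite way. Socs4 and Socs6 belong to the suppressors of cytokine signalling, a family whose best known members restrain JAK kinases. Socs4 had 8.37 and 8.26 in ckit+ cells and 7.27 and 7.31 in ckit- cells, a difference of 1.02 ± 0.16 (limma's SE). Socs6 had 7.005 and 6.774 in ckit+ cells and 5.85 and 5.94 in ckit- cells, a difference of 0.99 ± 0.17 (limma's SE). Socs6 stood at the 39.6 and 40.5 percentile of the ckit- arrays, and whether that level exceeds background is not known. The 5 genes were picked with their values known, so their split between the populations is no result. Other named genes with a cytokine link, such as Clcf1, Cxcl12 and Il17rd, were not picked, and their values are not given here. Limma called 0 of the 5 picked genes (0.309% of all probe sets), with an unadjusted p under 0.05 in 5 of 5 (15.7% of all). With the block it called 3, Dtx3l, H2-T10 and Socs4 (1.23% of all). These genes came from the selected table too, so nothing is read from the counts.

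**Figure D3:**
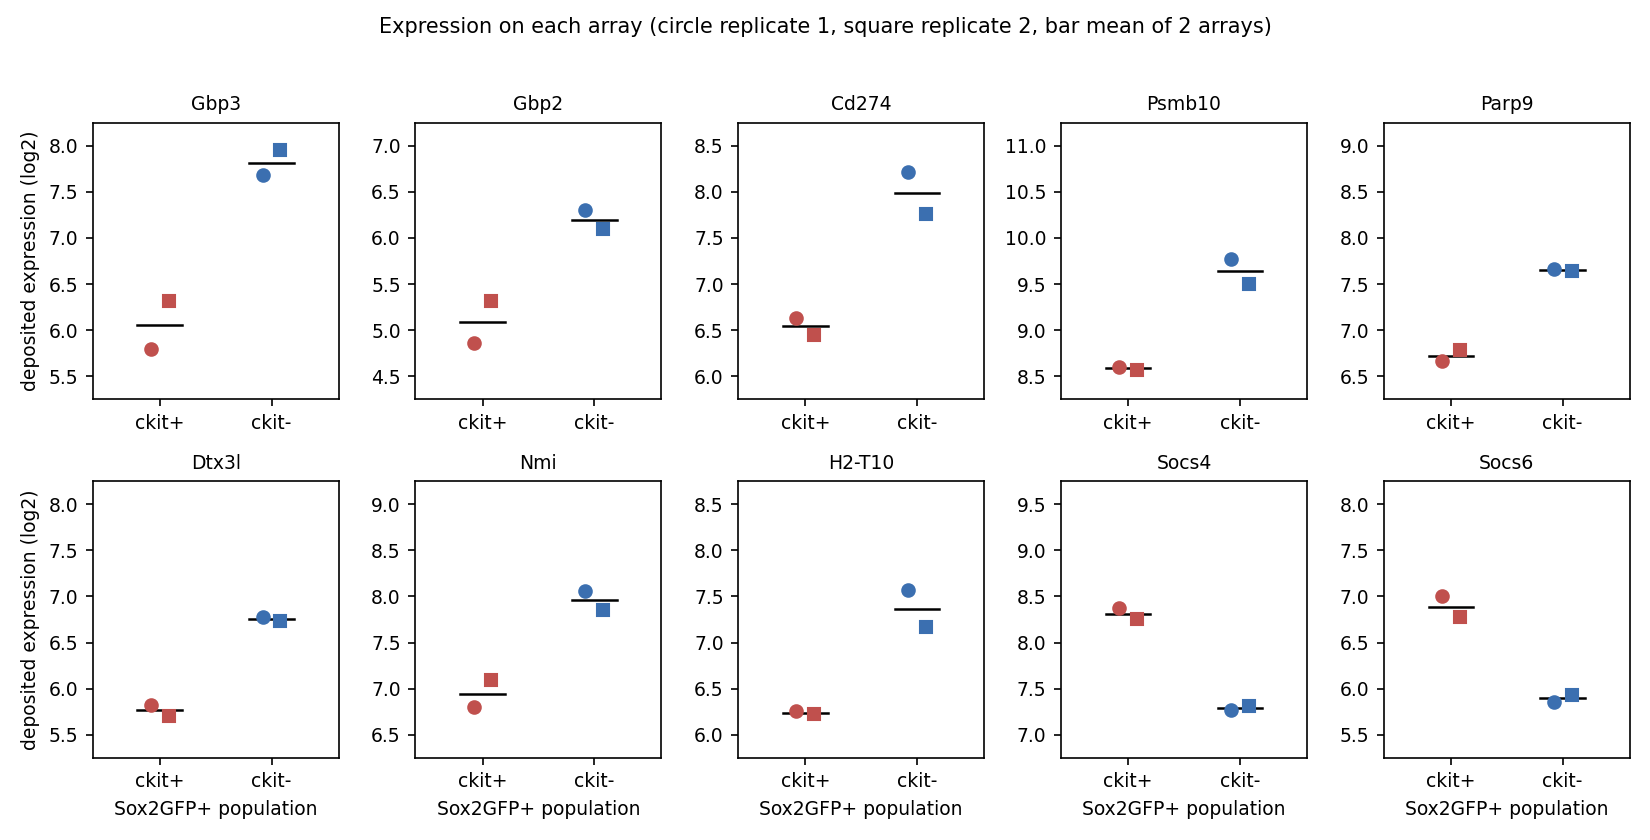
Deposited log2 expression of Gbp3, Gbp2, the 3 other listed pathway genes and the 5 genes picked after their values had been seen, on each array, with ckit+ cells on the left and ckit- cells on the right of each panel. Circles are replicate 1, squares replicate 2 and bars the mean of the 2 arrays, and every panel spans 3 log2 units but starts at its own level. Both ckit- arrays lie above both ckit+ arrays in the panels of Gbp3 (1.37 between the closest arrays), Gbp2 (0.79), Cd274, Psmb10, Parp9, Dtx3l, Nmi and H2-T10, as in 24.2% of all probe sets, and below them in those of Socs4 and Socs6, as in 24.5% of all probe sets.

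The promoter windows of Cd274, Psmb10, Dtx3l and Nmi, searched in the same way, held 0 ISRE core and 0 GAS core matches. Parp9 and H2-T10 were not searched.

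The likeness of the array pattern was measured as the Euclidean distance between the 4 values of a probe set after subtraction of its own mean, over 218 other named genes of the deposited table. All of them were selected on these arrays for a difference between the populations, so all share this contrast. Gbp3 was nearest to Tubb2b, a beta-tubulin (distance 0.165), Enc1, an actin-associated kelch protein (0.208), and Amot, angiomotin (0.237). These 3 had log2 differences of -1.64, -1.60 and -1.62. Gbp2 was nearest to Irs4, an insulin receptor substrate (0.134), the interferon-induced Nmi (0.147) and Mical1, an actin-oxidising monooxygenase (0.180). These 3 had log2 differences of -1.11, -1.01 and -0.95. The guanylate-binding proteins were not each other's nearest: at a distance of 0.730, Gbp3 ranked 84 for Gbp2 and Gbp2 ranked 72 for Gbp3. The values were centred but not scaled, so the distance also counts the size of the log2 difference, -1.76 for Gbp3 and -1.11 for Gbp2. Since the ckit+ level of Gbp2 may be background, its distances and these ranks have the same limit as its fold. Irs4, at 4.41 and 4.82 on the ckit+ arrays, lay below the lower quartile of both and may be background there too.

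**Figure D4:**
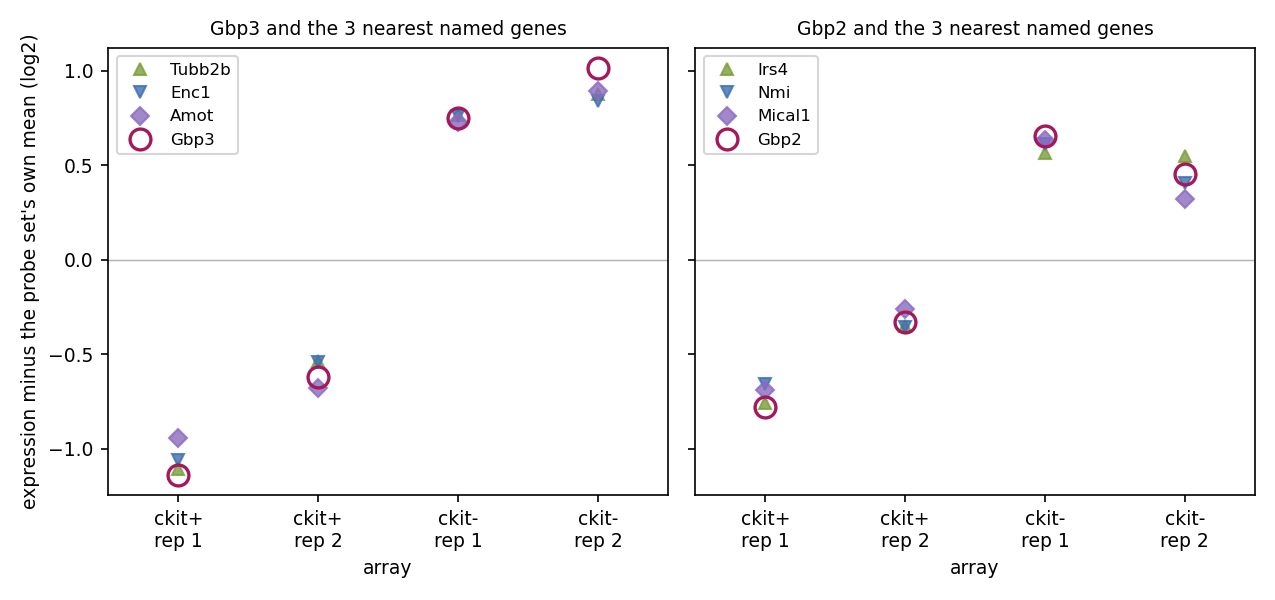
Log2 expression minus the probe set's own mean (y axis) on the 4 arrays (x axis), for Gbp3 (left) and Gbp2 (right) as open circles and for the 3 named genes with the smallest distance to each as filled symbols. Gbp3 stands at -1.14 and -0.62 on the ckit+ arrays and at 0.75 and 1.01 on the ckit- arrays, and Gbp2 at -0.78 and -0.33 on the ckit+ arrays and at 0.66 and 0.46 on the ckit- arrays.

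Guanylate-binding proteins are made by many cell types, so markers of other testis cells were looked up in the same table. Of 6 endothelial markers 1 was named, Plvap, a protein of endothelial diaphragms, with 5.40 and 5.39 in ckit+ cells and 6.77 and 6.91 in ckit- cells. Plvap stood at the 32.2 and 32.5 percentile of the ckit+ arrays, so its ckit+ level may be background. Of 3 peritubular myoid markers 1 was named, Tagln, and only by the start of its full name, matched by hand. This probe set (1426529_a_at) had 5.972 and 6.001 in ckit+ cells and 6.81 and 6.89 in ckit- cells. A related gene whose full name begins alike would match too, so the probe set cannot be taken as a myoid marker. Plvap and this probe set were higher on the same arrays as Gbp2 and Gbp3, and their part in the result was not tested. Of 9 macrophage and leukocyte, 3 mast cell, 5 Sertoli cell, 4 Leydig cell and 2 pan-germ-cell markers, 0 were named, and their levels were not analysed here. Of 5 markers of undifferentiated spermatogonia 4 were named (Gfra1, Ret, Zbtb16 and Etv5), each with higher values in ckit- cells. Of 4 markers of differentiating spermatogonia 2 were named (Kit and Stra8), both with higher values in ckit+ cells.

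Each member rests on a single probe set. Other guanylate-binding proteins are close in sequence, the probe sequences were not used here, and whether these probes also read related transcripts was not tested. The suffix of the Gbp3 probe set marks probes that read several transcripts of 1 gene.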

How the data were processed

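Expression was measured on 4 one-colour arrays, 2 per population. The value table, as deposited, held log2 expression per probe set, and RMA is named in the submitters' processing notes. The second table, as deposited, listed for each population the authors' log2 mean with its standard error, the linear ratio between the means, and p-values before and after Benjamini-Hochberg adjustment of a t-test over 605 tests, per the file headers.

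Differences (ckit+ minus ckit-) were fitted with limma 3.58.1 in R 4.3.3 on all 45037 non-control probe sets without a filter, with Benjamini-Hochberg adjustment over all of them, and tested on simulated data. Limma's p-values and SE combine the spread between 2 pools per population with a spread shared over all probe sets. They measure no other source of variation, and the number of arrays limits the precision. Array medians of 6.39 to 6.42 mean that a shift of all transcripts would not be visible.

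Of the 374 deposited probe sets 251 were named: 61 by RefSeq accession, 105 by a symbol in the description and 85 by the start of a full name matched by hand. For a gene with several, the brightest stands. Named here were the members, Kit, listed pathway genes, cell type markers and the 3 nearest patterns per member. The 5 genes picked after their values had been seen were named too. Members, lists and tests were chosen with earlier results of these data known. The counts of listed pathway genes could use only genes named in the deposited table, and no test of the lists was run.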

Additional observations from a re-analysis of the deposited data

How the results depend on the processing

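With an intensity trend limma called 419 probe sets over all, 1 member and 3 pathway genes, and with the replicate number as a block (replicate block) 554, 1 and 3, against 139, 0 and 0. The member was Gbp3 and the other pathway genes were Cd274 and Psmb10 in both fits. With the block, Dtx3l, H2-T10 and Socs4 passed too. Over all probe sets the deviations of arrays with the same number correlated at 0.259, but with only 2 pairs, and with no label on what they share, this does not pair them. The equal-variance test named in the header of the authors' table called 1 probe set over all (5346 at an unadjusted p under 0.05), 0 members and 0 pathway genes. The cause of these gaps was not tested. Without any 1 of the 4 arrays limma called 0 probe sets, 0 members and 0 pathway genes, with 4513 to 6422 probe sets at an unadjusted p under 0.05. The lone array is then assumed to vary like the other group, and fewer arrays leave fewer degrees of freedom.

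Without any 1 array the log2 difference was -2.02 to -1.50 for Gbp3 and -1.34 to -0.89 for Gbp2. The dim filter (mean above 6.40) tested no probe set of Gbp2, Dtx3l and Socs6 and called 99 probe sets, renewed quantile normalization 133 and median centring 142, with 0 members in each. With all arrays kept, only renewed quantile normalization and median centring could shift a difference, and of the 11 genes Kit (2.76) and Socs4 (0.93) then moved by more than the SD between replicates, both with renewed quantile normalization. No direction turned, which arrays that do not overlap between populations make nearly certain. Low signal limits Gbp2, whose ckit+ level lies near the lower quartile.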
